A study of Homo sapiens with 9 samples.

Results

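Capture-C interactions of the PCDH7 promoter were followed over 500 kb on both sides of the annotated start site of the gene. PCDH7 is 1 of 20 viewpoints in the series. Of the 494081 DpnII restriction fragments listed for this viewpoint, all 2080 whose midpoint lay on chromosome 4 within 500 kb of the start site were used, 1023 of them upstream and 1057 on the side of the gene. The samples were 9 libraries of HCT-116 MED14-dTAG cells, a derivative of an established human colorectal carcinoma line in which the Mediator subunit MED14 carries a dTAG degron. All 3 groups come from this 1 engineered line, so the DMSO cells carry the degron too, and each group has 3 libraries. The DMSO group received the solvent, the dTAG group received 0.5 μM dTAG ligand for 2 h, and the dTAG+I-BET group received the same ligand treatment and 1 μM of the BET inhibitor I-BET for 90 min. Untagged cells and cells treated with I-BET alone were not analysed here, and these libraries do not measure the level of MED14 or of the PCDH7 transcript. The question was whether contacts over the gene body and contacts over the upstream side responded differently to the loss of Mediator, without and with inhibition of BET proteins.

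PCDH7 encodes a protocadherin, a transmembrane protein of the cadherin superfamily that takes part in adhesion between cells. The Mediator complex links transcription factors bound at enhancers to RNA polymerase II at promoters, BET proteins bind acetylated histones at the same elements, and cohesin extrudes loops of chromatin that bring distant sites into contact. Capture-C cuts crosslinked chromatin with DpnII, ligates the ends that lie close together, and enriches ligation products of a chosen fragment, the viewpoint. The number of ligation products between the viewpoint and any other fragment then reflects how often both meet. The cells were measured in bulk, so that fewer cells with a contact and a less frequent contact in each cell cannot be told apart.

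In hg38, PCDH7 spans chr4:30720369-31146805 on the plus strand, 426437 bp, and is the longest of the 20 genes. Its MANE transcript, PCDH7-209, has 3 exons. Exon 1 covers the first 4.23 kb, exon 2 lies near the middle of the gene at 199.8 kb, and exon 3 ends the gene from 422.1 kb onwards, so that nearly all of the gene body is intron. GENCODE lists no other protein-coding gene within 500 kb. The lncRNA genes ENSG00000288940 and ENSG00000286596, the latter antisense to PCDH7, lie at the promoter. A further antisense lncRNA gene and the pseudogene MTCYBP43 lie in the gene body, and the lncRNA gene LINC02497 lies from 450.6 to 491.3 kb, past the gene end. No fragment was listed in chr4:30716860-30718775, a stretch of 1916 bp with 4 DpnII sites. The viewpoint was placed in this gap by inference from the absence of fragments, and the sequences of the capture oligonucleotides were not used here. The midpoint of the gap is at -2552 bp relative to the annotated start, inside ENSG00000288940.

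The ends of the longest fragment in that gap, the likely viewpoint fragment, and the 250 bases before the PCDH7 start (RefSeq, GRCh38.p14, chr4:30720119-30720368, plus strand) show where distances begin. Capitals mark GATC, the DpnII site, which is present 2 times in the promoter stretch and in 41.7% of 35116 RefSeq promoters of 300 bases.
likely viewpoint fragment, left end (chr4:30716965-30716988): GATCccatttccttctgaaccctt
likely viewpoint fragment, right end (chr4:30718332-30718355): tccatccaacgggcatctacGATC
PCDH7 promoter: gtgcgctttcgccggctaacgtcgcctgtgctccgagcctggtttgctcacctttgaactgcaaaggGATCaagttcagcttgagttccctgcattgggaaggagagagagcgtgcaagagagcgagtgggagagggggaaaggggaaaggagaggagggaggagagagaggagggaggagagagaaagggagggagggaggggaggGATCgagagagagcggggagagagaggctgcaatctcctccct

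The study listed sites that lost the cohesin subunit SMC1A after dTAG treatment in CUT&Tag, an assay in which a tethered transposase cuts and tags DNA near a bound protein, and 15 of these lie within 500 kb of the PCDH7 start. Every one of them is inside the gene, 37.1 to 369.8 kb from the start, and none is upstream. In PCDH7-209, 8 lie in the first intron and 7 in the second, and none overlaps an exon of any PCDH7 transcript. On both strands of the 15 sites (401 bp each), 10 motifs were searched. Apart from GATC, the one found in most sites was TGANTCA, used here for AP-1 with its middle letter left open. It was in 6 sites against 14.8% of 2493 tiles of the same length over the region. TGANTCA reads the same on both strands. The other motifs were CATTCC of TEAD (4 sites, 18.9% of tiles), ATCAAAG of TCF/LEF (3 sites, 8.54%), TGTGGTT of RUNX (2 sites, 7.42%), TGTTTAC of forkhead factors (1 site, 9.23%), and longer motifs of KLF (1 site, 1.97%), HNF4 (1 site, 0.602%), ETS (0 sites, 0.0401%) and CTCF (0 sites, 0.201%). GATC was in 11 sites and 57.3% of tiles. AP-1 is a transcription factor dimer of FOS and JUN proteins that binds many enhancers. This motif was chosen for display after the counts were known, and a match is a description of these letters only. The 6 matches are shown on the plus strand of hg38, with the motif in capitals and the sites numbered from the promoter. Sites 1, 11 and 15 read TGACTCA, while sites 6, 12 and 14 read TGATTCA, and the tiles were not counted for each form apart.
site 1 (chr4:30757594-30757640): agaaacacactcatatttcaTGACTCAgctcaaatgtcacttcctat
site 6 (chr4:30847319-30847365): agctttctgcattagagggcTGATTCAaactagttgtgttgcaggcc
site 11 (chr4:30963135-30963181): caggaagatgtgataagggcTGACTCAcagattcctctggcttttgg
site 12 (chr4:31035471-31035517): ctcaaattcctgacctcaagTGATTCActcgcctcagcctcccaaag
site 14 (chr4:31084975-31085021): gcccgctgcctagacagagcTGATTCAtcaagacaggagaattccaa
site 15 (chr4:31089991-31090037): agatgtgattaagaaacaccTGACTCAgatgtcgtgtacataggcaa

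Between 26695 and 45364 interactions on chromosome 4 were recovered for PCDH7 in a library, of which 10009 to 25411 lay within 500 kb. Bins of 10 kb correlated with a Pearson r of 0.956 to 0.982 between libraries of a group (9 pairs, across bins). Library dTAG replicate 3 stood apart. It placed 37.5% of its chromosome 4 signal within 500 kb, against 49.4% to 58.2% in the other 8 libraries, and 33.9% of its interactions were with other chromosomes, against 25.6% to 29.8%. The authors had scaled each library to nearly the same total, and over the gene body and the upstream side this library lay below all 3 DMSO libraries, whereas past the gene end it lay among them. Where leaving it out turns a dTAG value or changes a call, the value without it is given.

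In DMSO the PCDH7 promoter contacted its own gene far more than the sequence upstream. Signal per kb over the gene body, from 10 kb after the start to the gene end, was 698, 714 and 625 in the 3 DMSO libraries, and over the window of the same size and distance on the upstream side it was 285, 270 and 216. Each library had more than 2 times the signal over the gene, and the ranges were far apart. The gene side as a whole, from 10 to 500 kb, held 72.0% ± 1.67 (SD, n = 3) of the signal of both sides in DMSO. The mean log2 ratio of gene body over mirrored upstream signal across all 9 libraries, treated ones included, was 1.42 ± 0.12 (SD, n = 9), which is 2.68-fold. It was above 0 in 9 of 9 libraries (exact two-sided sign-flip permutation test, p = 0.0039, the smallest that 9 libraries allow). The 3 DMSO libraries alone averaged 1.40 ± 0.12, with p = 0.25 in the exact permutation test, the smallest that 3 libraries allow.

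**Figure D1:**
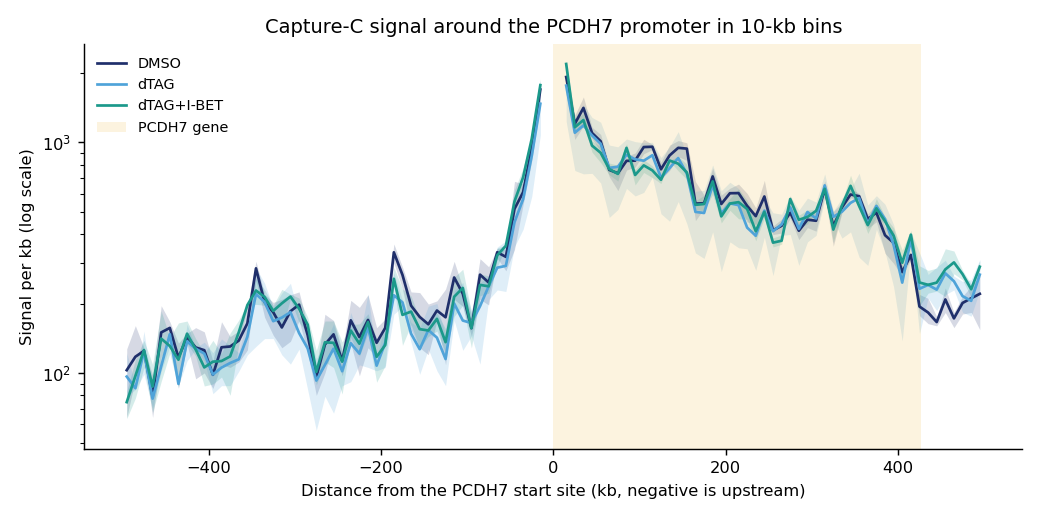
Capture-C signal per kb (log scale) in 10-kb bins by distance from the PCDH7 start site, negative upstream, with bins within 10 kb left out. Lines are group means of 3 libraries, bands run from the lowest to the highest library, and the shaded area is the gene. In DMSO no upstream bin beyond 70 kb exceeds 334 per kb, while no bin over the first 400 kb of the gene is below 367. Signal drops beyond 400 kb, starting before the gene end.

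The difference between both sides grew with distance and then shrank. From 10 to 50 kb the gene side had 1408 ± 170.3 and the upstream side 942 ± 133 signal per kb in DMSO (SD, n = 3). From 50 to 100 kb the values were 834 ± 67.3 and 265 ± 31.2, and from 100 to 200 kb they were 778 ± 56.7 and 213 ± 30.8. Signal was lower on both sides beyond 50 kb, and the step was larger upstream. From 200 to 300 kb and from 300 to 400 kb the gene side was almost level, at 502 ± 32.8 and 495 ± 15.8, against 145 ± 23.7 and 168 ± 25.9 upstream. In the last band, from 400 to 500 kb, which holds the gene end, the gene side had 216 ± 13.8 and the upstream side 125 ± 11.4.

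Each of the 49 pairs of 10-kb bins at equal distance had the higher DMSO mean on the gene side, with a ratio of 1.06 to 5.82 and a median of 2.83. In 47 of the 49 pairs the gene side was higher in all 9 libraries. The 5 bins with the highest DMSO signal relative to the mean of both sides lay in introns at 140 to 150, 150 to 160, 90 to 100, 270 to 280 and 240 to 250 kb. The first of these had 1018, 956 and 867 signal per kb in the DMSO libraries, 5.82 times the mean of its upstream counterpart. The other 4 had ratios of 5.36, 5.32, 5.16 and 5.15. Among the upstream bins beyond 100 kb, the one from 190 to 180 kb upstream was the highest in DMSO, at 334 ± 31.4 (SD, n = 3).

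**Figure D2:**
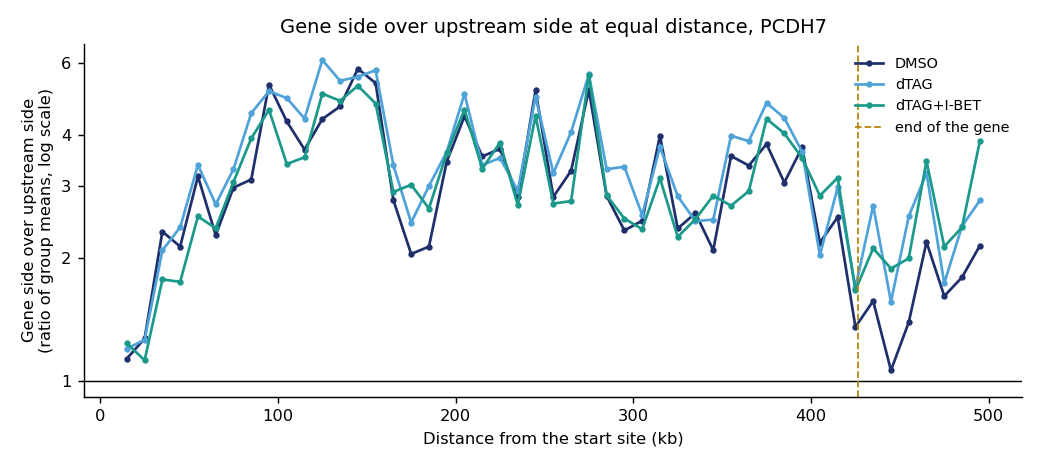
Ratio of mean signal on the gene side to mean signal on the upstream side in 10-kb bins at equal distance from the PCDH7 start site (log scale), 1 line per group of 3 libraries. The DMSO ratio starts at 1.13 next to the promoter, reaches 5.82 at 140 to 150 kb and is 1.36 in the bin from 420 to 430 kb, which holds the gene end (dashed line).

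Signal dropped close to the end of the gene. The lowest DMSO mean of the 41 bins within the gene was 274 signal per kb, at 400 to 410 kb. The drop thus began before the gene end. In DMSO the bin from 410 to 420 kb had 325 ± 11.7 signal per kb (SD, n = 3). The bin from 420 to 430 kb, where PCDH7 ends, had 194 ± 22.0, and the bin from 440 to 450 kb had 166 ± 7.87. Past this drop the gene side still exceeded the upstream side. All 8 bins at or past the gene end had the higher DMSO mean on the gene side, by 1.06 times at 440 to 450 kb, 2.14 times at 490 to 500 kb and 2.19 times at 460 to 470 kb, with a median of 1.59, against 3.11 over the 41 bins within the gene. Over all sequence between the gene end and 500 kb, which includes LINC02497, the DMSO libraries had 183, 212 and 196 signal per kb. This was far below their level over the gene body, which lies nearer to the viewpoint.

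Treatment with dTAG ligand left the level over the gene body and over the upstream side of PCDH7 without a call. Gene body signal was 736, 743 and 450 per kb in the dTAG libraries, and mirrored upstream signal was 237, 257 and 171. The first 2 libraries lay above all 3 DMSO libraries over the gene body, and replicate 3 lay below them all. The fitted log2 ratio of dTAG over DMSO was -0.11 for the gene body (SE 0.16, 95% confidence interval -0.45 to 0.22, limma adjusted p = 0.712) and -0.22 for the mirrored upstream window (SE 0.15, 95% confidence interval -0.54 to 0.09, limma adjusted p = 0.458). Without dTAG replicate 3 the gene body ratio was 0.13 (limma adjusted p = 0.167), and the upstream ratio was -0.05 (limma adjusted p = 0.738). The sign of the gene body value therefore rests on this library. Among all 118 regions of the 20 viewpoints, 4.24% were called in this comparison at an adjusted p under 0.05, and 0 of 8 at PCDH7.

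**Figure D3:**
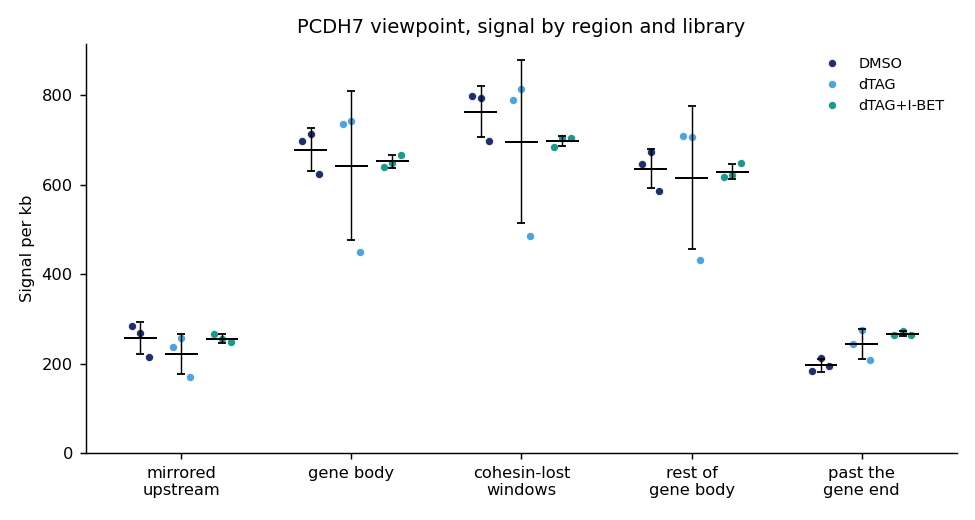
Signal per kb of the PCDH7 viewpoint by region. Points are libraries, horizontal bars are means and error bars are SD (n = 3 per group). Gene body signal lies above mirrored upstream signal in every library, dTAG replicate 3 is the low point of its group in every region, and past the gene end the 3 dTAG+I-BET libraries (264, 273 and 265) lie above the 3 DMSO libraries.

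Beyond the gene end both treated groups had higher means than DMSO. The dTAG libraries had 245, 276 and 209 signal per kb between the gene end and 500 kb, and the dTAG+I-BET libraries had 264, 273 and 265. The dTAG+I-BET libraries all exceeded the highest DMSO library, as in 39% of the regions of all viewpoints, while dTAG replicate 3 lay just below it. For dTAG+I-BET over DMSO the log2 ratio was 0.44 (SE 0.12, 95% confidence interval 0.18 to 0.70, limma adjusted p = 0.0238), a rise of 1.36-fold that was the only call among the 8 PCDH7 regions. In all viewpoints 14.4% of the 118 regions were called in this comparison, each of them as higher. For dTAG over DMSO it was 0.30 (SE 0.12, unadjusted p = 0.027, limma adjusted p = 0.208), and without dTAG replicate 3 it was 0.40 (limma adjusted p = 0.0021). Leaving out any DMSO or dTAG+I-BET library kept the log2 ratio of dTAG+I-BET over DMSO between 0.39 and 0.49 but gave a limma adjusted p of 0.0601 to 0.113.

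Signal past the gene end was also set against the gene body of the same library. The log2 ratio of signal past the gene end over signal in the gene body, a measure added after the data had been seen, was -1.92, -1.74 and -1.67 in DMSO, -1.58, -1.43 and -1.10 in dTAG, and -1.27, -1.25 and -1.33 in dTAG+I-BET. Both treated groups lay wholly above DMSO, which was so for 10% of the 10 genes longer than 30 kb in each comparison, that is, for PCDH7 alone. The window runs from the end of each gene to 500 kb, so that its distance and size differ between these genes. For PCDH7 the change was 0.49 for dTAG+I-BET against DMSO (SE 0.12, limma adjusted p = 0.0093 over these genes) and 0.41 for dTAG against DMSO (SE 0.12, limma adjusted p = 0.0636). The latter was 0.27 without dTAG replicate 3 (limma adjusted p = 0.0593). For dTAG+I-BET against DMSO 20% of them were called, with PCDH7 higher and HMGA2, which encodes a chromatin architectural protein, lower by 0.51 on the log2 scale. For dTAG against DMSO 0% of the genes were called and 2 had an unadjusted p under 0.05.

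Among the 98 bins of 10 kb around PCDH7, 1 was called. It lies 460 to 470 kb downstream (chr4:31180369-31190368), in LINC02497 and past the gene end. Its signal per kb was 157, 177 and 183 in DMSO, 258, 263 and 229 in dTAG, and 270, 298 and 338 in dTAG+I-BET. The 3 groups did not overlap and followed this order. Over all viewpoints 6.28% of bins had dTAG libraries wholly above DMSO, and 15.1% had dTAG+I-BET libraries wholly above DMSO. The fitted log2 ratio was 0.80 for dTAG+I-BET over DMSO (SE 0.17, limma adjusted p = 0.0095) and 0.53 for dTAG over DMSO (SE 0.17, limma adjusted p = 0.131). In the former comparison 4.9% of the 1960 bins of all viewpoints were called, against 1 of 98 here. In the latter 1.58% were called, against 0 of 98 here, where 5 bins had an unadjusted p under 0.05 (13.3% over all viewpoints) and edgeR on recovered interactions also called 0. The call at 460 to 470 kb was lost when DMSO replicate 1, dTAG+I-BET replicate 2 or dTAG+I-BET replicate 3 was left out, with limma adjusted p of 0.0516 to 0.0787.

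**Figure D4:**
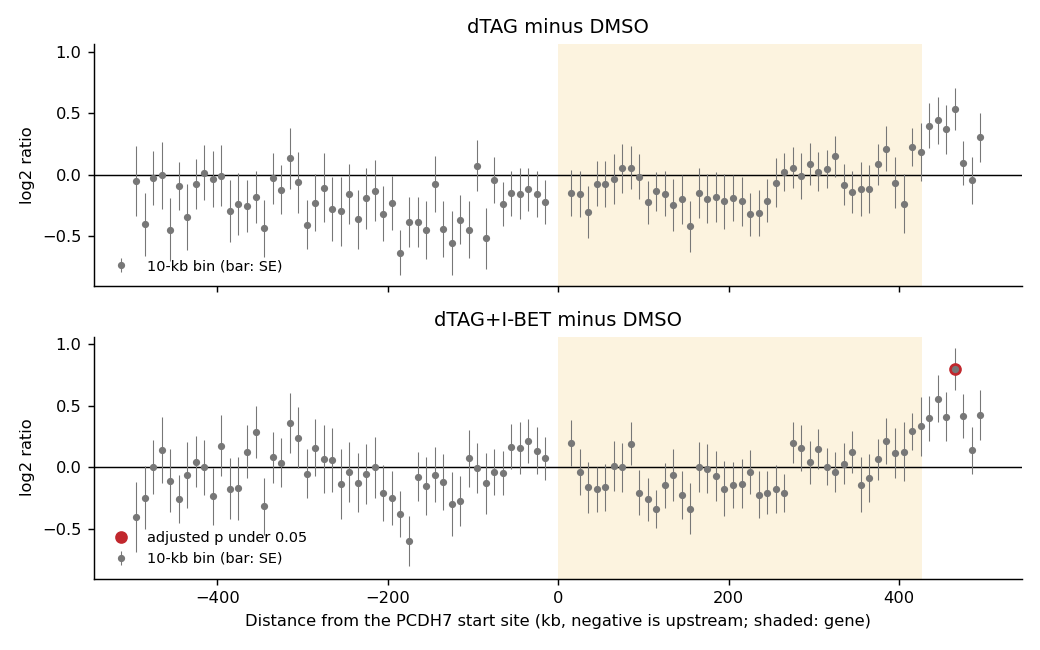
Fitted log2 ratio of signal in 10-kb bins around PCDH7, dTAG against DMSO above and dTAG+I-BET against DMSO below, by distance from the start site. Error bars are SE, the gene is shaded, and the red point is the bin at 460 to 470 kb (0.80). All 8 bins at or past the gene end lie above 0 in the lower panel and 7 of 8 in the upper.

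The 3 highest log2 ratios of dTAG over DMSO in the region were all past the gene end, at 460 to 470 kb (0.53), 440 to 450 kb (0.44) and 430 to 440 kb (0.40). In the bin from 440 to 450 kb the DMSO libraries had 164, 175 and 160 signal per kb and the dTAG libraries 187, 288 and 215. In the bin from 430 to 440 kb the DMSO libraries had 164, 211 and 175 and the dTAG libraries 244, 268 and 212. In all 3 bins the dTAG libraries lay above the DMSO libraries. The 8 bins at or past the gene end had a median log2 ratio of 0.33 for dTAG and 0.41 for dTAG+I-BET over DMSO, beside -0.07 and 0.01 over all 1960 bins. Those 1960 bins cover both sides and every distance from 10 to 500 kb, unlike the 8 bins. The median of the 8 bins for dTAG was 0.47 without dTAG replicate 3, beside 0.05 over all bins, and 0 of the 8 bins were then below 0.

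The 3 lowest log2 ratios of dTAG over DMSO were upstream, at 190 to 180 kb (-0.63), 130 to 120 kb (-0.56) and 90 to 80 kb (-0.52). In the first, the highest upstream bin beyond 100 kb in DMSO, signal per kb was 363, 338 and 301 in DMSO, 200.2, 272 and 180 in dTAG, and 241, 240.3 and 288 in dTAG+I-BET. The DMSO libraries lay above all 6 treated libraries. Over all viewpoints 10.1% of bins had dTAG libraries wholly below DMSO. The ratio of dTAG over DMSO there had an SE of 0.18 and a limma adjusted p of 0.0836, and did not pass. The ratios of these 3 bins were -0.51, -0.38 and -0.15 without dTAG replicate 3. The whole upstream band from 100 to 200 kb had 238, 223 and 179 in DMSO and 161, 186 and 137 in dTAG, a log2 ratio of -0.40 (SE 0.13, unadjusted p = 0.0108, limma adjusted p = 0.118), and -0.29 without dTAG replicate 3 (limma adjusted p = 0.115). This band was called as lower without DMSO replicate 3 (-0.53, limma adjusted p = 0.0309) and after rescaling to signal from 10 to 1000 kb (-0.34, limma adjusted p = 0.024). In the main fit none of the 12 distance bands of PCDH7 was called in dTAG against DMSO or in dTAG+I-BET against DMSO, where 4.17% and 7.5% of the 240 bands of all viewpoints were. Without dTAG replicate 3, the gene side bands at 50 to 100 kb (0.26, limma adjusted p = 0.0457) and 400 to 500 kb (0.36, limma adjusted p = 0.0088) were called as higher in dTAG. On the upstream side 46 of 49 bins had a log2 ratio of dTAG over DMSO below 0, on the gene side 31 of 49, and over all viewpoints 60.2% of bins. Without dTAG replicate 3 these counts were 29 of 49 upstream and 5 of 49 on the gene side, beside 43.3% over all viewpoints, so that the sign of most gene side bins rests on this library.

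The ratio of gene body over mirrored upstream signal is taken within a library and does not depend on its total. For PCDH7 its log2 was 1.29, 1.40 and 1.53 in DMSO, 1.63, 1.53 and 1.39 in dTAG, and 1.26, 1.34 and 1.43 in dTAG+I-BET. The 3 groups overlapped. The change was 0.11 for dTAG against DMSO (SE 0.09, 95% confidence interval -0.09 to 0.31, limma adjusted p = 0.31), or 0.17 without dTAG replicate 3 (limma adjusted p = 0.0993), and -0.06 for dTAG+I-BET against DMSO (SE 0.09, 95% confidence interval -0.26 to 0.13, limma adjusted p = 0.571). In each of these comparisons 60% of the 10 genes longer than 30 kb were called, all as higher, and PCDH7 was not among them.

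The level of this ratio at PCDH7 was the highest of the 10 genes in each of the 9 libraries. The gene next in order, IRS1, which encodes an adaptor of the insulin receptor, had 0.44 to 0.73 over the 9 libraries, below the lowest PCDH7 value of 1.26, so that the 2 genes did not overlap. The other genes longer than 100 kb had more signal upstream than over their bodies in DMSO. Their mean log2 ratios were -0.82 for VTI1A, -0.90 for DCBLD2, -0.96 for MTAP and -1.31 for HMGA2. The windows differ in size with the gene, so these levels are a description. A high ratio was not particular to PCDH7 or to a long gene. For the gene side over the upstream side from 10 to 500 kb, PCDH7 ranked 2 of the 20 viewpoints in DMSO, with a mean log2 ratio of 1.36. PHLDA1, a gene of 6.33 kb, had 1.47, and the DMSO libraries of both overlapped. HMGA2 had the highest change in dTAG against DMSO, 1.02, and VTI1A the lowest, -0.02. By the distance of both changes from DMSO, IRS1 (0.10 away on the log2 scale) and VTI1A (0.16) were most like PCDH7 among the other 9 genes. The 2 comparisons share the DMSO libraries.

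**Figure D5:**
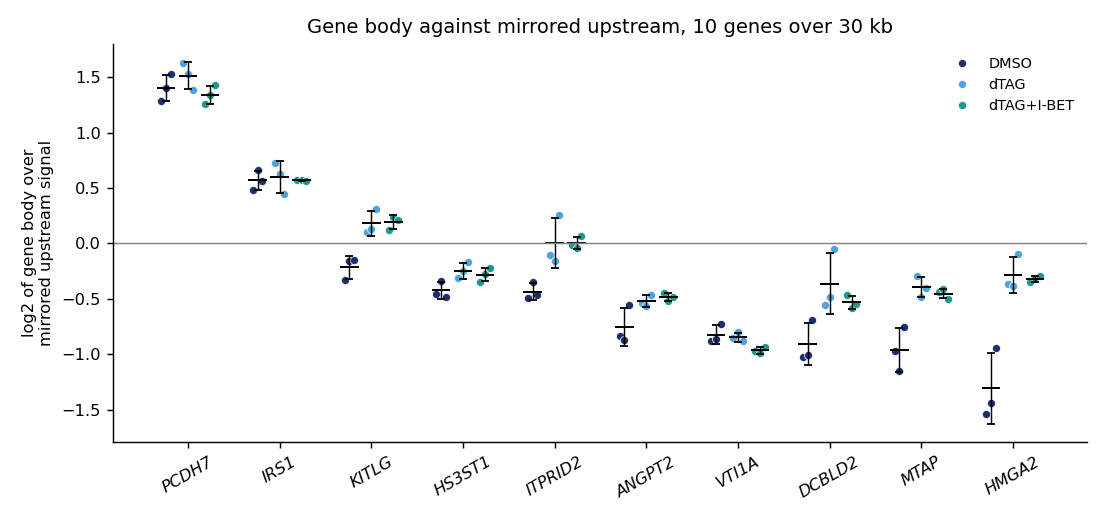
Log2 ratio of gene body signal over signal in the mirrored upstream window for the 10 genes longer than 30 kb, ordered by their DMSO mean. Points are libraries, horizontal bars are means and error bars are SD (n = 3 per group). PCDH7 lies at 1.26 to 1.63 and its groups overlap, while the DMSO libraries of HMGA2 lie below its treated libraries.

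The PCDH7 sides were also set against those of the other 19 viewpoints. The log2 ratio of the gene side over the upstream side from 10 to 500 kb exceeded the mean of the other viewpoints by 1.74, 1.78 and 1.86 in DMSO, 1.80, 1.71 and 1.51 in dTAG, and 1.45, 1.52 and 1.61 in dTAG+I-BET. The dTAG+I-BET libraries lay below all DMSO libraries, as at 35% of viewpoints. This excess fell by 0.27 on the log2 scale in dTAG+I-BET against DMSO (SE 0.08, 95% confidence interval -0.44 to -0.09, limma adjusted p = 0.0201), a comparison in which 35% of the 20 viewpoints were called. The PCDH7 ratio itself was nearly level, at 1.36 ± 0.12 in DMSO and 1.34 ± 0.08 in dTAG+I-BET (SD, n = 3). Most of the fall in the excess therefore lay in a higher mean of the other viewpoints. In dTAG against DMSO the excess differed by -0.12 (SE 0.08, limma adjusted p = 0.266, with 25% of viewpoints called), and by -0.039 without dTAG replicate 3. Compared only with the other genes longer than 100 kb, this value was -0.32 (limma adjusted p = 0.0262), and over gene body windows of genes longer than 30 kb, a choice made after the data had been seen, it was -0.27 (limma adjusted p = 0.0261). Leaving out dTAG+I-BET replicate 1 or 2 gave a limma adjusted p of 0.0958 or 0.0693 for dTAG+I-BET against DMSO.

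Adding I-BET to dTAG ligand gave no call at PCDH7 or at any other viewpoint. None of the 98 bins, 12 bands, 8 regions or 10 windows of PCDH7 was called, with 0% of bins called over all viewpoints and 2 PCDH7 bins at an unadjusted p under 0.05 (6.22% over all viewpoints). edgeR on recovered interactions also called 0 of these bins. For dTAG+I-BET over dTAG the log2 ratio was 0.06 for the gene body (95% confidence interval -0.28 to 0.39), 0.23 for the mirrored upstream window (95% confidence interval -0.08 to 0.54) and 0.14 past the gene end (95% confidence interval -0.11 to 0.40). The change in the ratio of gene body over mirrored upstream was -0.17 (SE 0.09, unadjusted p = 0.0816, limma adjusted p = 0.703). Without dTAG replicate 3 the gene body value was -0.18 (limma adjusted p = 0.326), so that its sign rests on this library as well.

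The 15 cohesin-lost sites, with 5 kb added on each side, merge into 10 windows of PCDH7, which together cover 140.5 kb of the gene body. Their signal per kb was 798, 794 and 698 in DMSO, 790, 813 and 486 in dTAG, and 685, 704 and 705 in dTAG+I-BET. The groups overlapped. For dTAG over DMSO the log2 ratio was -0.17 (SE 0.16, 95% confidence interval -0.50 to 0.17, limma adjusted p = 0.59), and that of dTAG+I-BET over DMSO was -0.13 (SE 0.16, limma adjusted p = 0.771). Without dTAG replicate 3 the former was 0.07 (limma adjusted p = 0.458), so that its sign rests on this library. The rest of the gene body had 647, 672 and 587 in DMSO, 709, 707 and 431 in dTAG, and 618, 622 and 648 in dTAG+I-BET. In this remainder the first 2 dTAG libraries lay above all DMSO libraries, whereas over the windows 1 of them did. The log2 ratio of the remainder was -0.08 for dTAG over DMSO, or 0.16 without dTAG replicate 3, and -0.01 for dTAG+I-BET over DMSO. Each of these values lay above that of the windows. The difference between the windows and the remainder was not tested.

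None of the 10 windows was called alone, and 1 had an unadjusted p under 0.05 in dTAG against DMSO (22.1% over all viewpoints). Over all viewpoints 8.85% of the 113 windows were called in that comparison and 14.2% in dTAG+I-BET against DMSO. The window with the lowest log2 ratio of dTAG over DMSO, at 223.3 to 235.8 kb, holds 2 sites without a TGANTCA match. Its signal per kb was 602, 551 and 488 in DMSO, 407, 512 and 330.5 in dTAG, and 444, 477 and 585 in dTAG+I-BET. Its log2 ratio of dTAG over DMSO was -0.41 (SE 0.17, unadjusted p = 0.0298, limma adjusted p = 0.146), or -0.25 without dTAG replicate 3, and the ranges overlapped. The highest ratio, 0.05, was in the window at 309.9 to 320.3 kb, which holds site 12. In dTAG against DMSO 9 of 10 windows had a ratio below 0, with a median of -0.20 beside -0.19 over all 113 windows, of which 78.8% were below 0. When dTAG replicate 3 was left out, 3 of 10 were below 0, with a median of 0.06, beside 58.4% and -0.03 over all windows. The nearest window, with site 1, had the highest signal, with 1446, 1405 and 1087 per kb in DMSO, 1302, 1366 and 692 in dTAG, and 1105, 1165 and 1190.4 in dTAG+I-BET. In 1 window, at 111.8 to 132.1 kb, the dTAG+I-BET libraries (808, 794 and 753) lay below all DMSO libraries (916, 932 and 865), as did 31.9% of windows over all viewpoints.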

How the data were processed

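After DpnII digestion and capture, the authors assigned ligation products to restriction fragments with CapCruncher (version 1) on hg38. The study's software list also names Bowtie2 2.3.5 and Samtools 1.9, without tying them to Capture-C. bcl2fastq 2.17 is given in the submitters' processing notes. The deposited signal is the count of interactions scaled by the authors to a nearly equal total per library. All values (100%, tolerance 0.01) were whole multiples of the smallest, so the number of interactions was recovered. The fragments lie between GATC sites of hg38 in 100% of the 2080 checked. Intervals and p-values cover the spread between these libraries only. The study calls the replicates biologically independent, while the column letters TR are not explained. Each library was counted on that statement. Libraries of a group differed beyond counting noise (chi-square per degree of freedom of 1.33 to 2.88 over 9 pairs and all bins), which does not show that they are independent. The dTAG+I-BET pairs were the lowest, at 1.33 to 1.36. In the bins of PCDH7 alone the range was 1.14 to 2.39. There the chi-square test gave p = 0.161 for dTAG+I-BET replicates 1 and 3, 0.0854 for dTAG+I-BET replicates 2 and 3, and 0.0958 for DMSO replicates 2 and 3.

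Fragments were assigned by midpoint to 10-kb bins, distance bands, and regions from 10 to 500 kb of the GENCODE start. Sequence within 10 kb was left out. limma 3.58.1 (R 4.3.3) was fitted to log2(signal per kb + 1) of all 9 libraries and 20 viewpoints, with a variance trend for bins, and p-values were adjusted by Benjamini-Hochberg over all rows. A call needs an adjusted p under 0.05. The filter of 2 signal per kb removed 0 bins. Fold changes are on the log2(signal + 1) scale. edgeR 4.0.16 (quasi-likelihood) was run on recovered interactions. Both were tested on simulated data. Sequences were read with pysam 0.24.0 and figures drawn with matplotlib 3.10.9 (Python 3.11.15), with scipy 1.17.1, pandas 2.3.3 and numpy 2.4.6 for the rest.

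Bins named are those called, the 3 lowest and 3 highest log2 ratios of dTAG over DMSO, and the 5 highest in DMSO relative to both sides. Other bins are given where bands, the gene end or alternatives are described. The members, lists, regions and motifs were chosen with earlier results of these data known. Alternatives were another pseudocount, bin size, window size, inner edge, filter, variance trend, scaling, set of libraries, a replicate block, edgeR and, added later, windows centred on the viewpoint fragment. Exact two-sided permutations of 3 against 3 libraries cannot give a p below 0.1.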

Additional observations from a re-analysis of the deposited data

How the results depend on the processing

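All values are log2 ratios unless called counts, and all adjusted p are from limma unless edgeR is named. Over 34 results, 540 alternative values kept their direction, or their count within 1.5 times, and their side of the threshold. Of the others, 12 reversed direction, 11 lost a call, 11 gained a call and 16 were counts that moved further. Whether replicate numbers pair the libraries was not settled. Deviations of same-numbered libraries correlated at -0.06 to 0.23, above 0.1 in 2 of 9 pairs. Those of differently numbered libraries correlated at -0.23 to 0.16, above 0.1 in 1 of 18 pairs. Between dTAG and DMSO the same-numbered values were 0.03, 0.11 and 0.23, and the differently numbered ones ran from -0.23 to 0.16. The block serves as an alternative only. With the replicate block, 1 bin was called in dTAG against DMSO (190 to 180 kb upstream, -0.63, adjusted p = 0.047), 1 band in dTAG+I-BET against DMSO (400 to 500 kb on the gene side), and the ratio past the gene end over the gene body in dTAG against DMSO was 0.41 (adjusted p = 0.0166). The block changed no other call.

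Rescaling each library to its signal from 10 to 1000 kb gave 2 bins and 2 bands called in dTAG against DMSO, and 2 bins and 1 band in dTAG+I-BET against DMSO. The bins were 190 to 180 kb upstream (-0.57) and 460 to 470 kb (0.60) in the former, and 460 to 470 and 110 to 120 kb in the latter. The bands of the former were 100 to 200 kb upstream (-0.34) and 400 to 500 kb on the gene side (0.29). That of the latter was 400 to 500 kb on the gene side (0.36). Rescaled values were 0.36 past the gene end in dTAG against DMSO (adjusted p = 0.00797), -0.034 for the gene body and -0.051 for the cohesin-lost windows in dTAG+I-BET against dTAG, and -0.018 for the mirrored upstream window in dTAG+I-BET against DMSO. That last value was also -0.0024 with edgeR and -0.011 with an inner edge of 25 kb, all near 0. The inner edge of 25 kb gave 0.40 (adjusted p = 0.0123) for the ratio past the gene end over the gene body in dTAG against DMSO. Bins of 25 kb gave 2 calls in dTAG+I-BET against DMSO, both past the gene end, and a fit of only the 2 groups compared gave 1 band. The excess over other viewpoints in dTAG against DMSO was -0.32 against genes longer than 100 kb and -0.27 over gene body windows.

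Leaving out each library in turn gave, in dTAG against DMSO, 0 to 1 bins (1 without dTAG replicate 2, at 190 to 180 kb upstream, -0.81) and 0 to 2 bands called (1 without DMSO replicate 3, 2 without dTAG replicate 3). In the same comparison the range was -0.23 to 0.13 for the gene body and -0.30 to 0.073 for the cohesin-lost windows (both above 0 only without dTAG replicate 3), 0.20 to 0.40 past the gene end and 0.27 to 0.51 for past the gene end over the gene body. The last passed without dTAG replicate 1. In dTAG+I-BET against dTAG the range was -0.18 to 0.18 for the gene body, -0.20 to 0.17 for the windows and -0.020 to 0.22 for past the gene end over the gene body. In dTAG+I-BET against DMSO it was 0 to 3 bins and 0 to 1 bands called (3 and 1 without dTAG replicate 3), -0.11 to 0.086 for the mirrored upstream window, 0.39 to 0.49 past the gene end and -0.31 to -0.23 for the excess over other viewpoints. Except where a value shows otherwise, the cause of these shifts was not tested. In the median library a bin wholly past the gene end held 67 to 88 interactions, against 303 in the bin from 140 to 150 kb, which limits single bins there.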
